A study of Homo sapiens with 8 samples.

Results

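A set of 10 genes of the acute phase response and of complement, with the NMES1 gene, was followed across 8 RNA-seq libraries made from A-498 cells, a long-used line derived from a human kidney tumour. The members, of 28395 genes in the deposited table, were SAA1, SAA2, LCN2, C3, CFB, C1S, C1R, PTX3, TNFAIP6 and COXFA4L3 (formerly C15orf48). They were chosen by name, and SAA1, TNFAIP6 and COXFA4L3 were included because their values were higher in the library numbered replicate 2 than in the one numbered replicate 1. Of the 10, 9 passed the filter on low values (a normalized count of at least 10 in at least 2 libraries), as did 14040 genes in all, and CFB did not.

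The libraries came from 4 lines with 2 replicates each, all grown 24 hours after seeding equal cell numbers. Control line 1 and control line 2 had the genotype wild type control and carried non-targeting sgRNA-1 and non-targeting sgRNA-2. The other lines, called KO guide 1 and KO guide 2 here, were labelled ANXA4 knockout and carried ANXA4 sgRNA-1 and ANXA4 sgRNA-2. Each guide was represented by 1 line, so guide and line cannot be told apart, and whether a line was a single clone was not stated. ANXA4, the targeted gene, had normalized counts of 2821 to 6773 in the control libraries, 234 to 236 in KO guide 1 and 3433 to 4142 in KO guide 2, so "KO" refers to the label for the latter. Nothing in the labels tied the replicates to separate cultures, and p-values measure the spread between these libraries.

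Depth was 15784890 to 22631588 reads per library. The kidney lineage factor PAX8 was at 2987 to 4476 normalized counts in all 8 libraries, whereas 3 other genes of the 9 on the kidney carcinoma list were low, CA9 at 2.07 to 24.8, COXFA4L2 at 0.86 to 8.30 and EPCAM at 3.13 to 9.46. The remaining ones, PAX2, LHX1, VIM, KRT8 and KRT18, were at 106.5 or above in every library. Of 10 leukocyte markers, 7 had at most 3 reads in every library. The pan-leukocyte gene PTPRC had at most 1 read, and the summed level of this list was almost entirely CD68 (1784 to 4409). Of 6 hepatocyte markers, 4 had at most 3 reads in every library, and ALB was at 0.783 to 9.19. Of 5 fibroblast markers, DCN and LUM had at most 1 read in any library, PDGFRA had at most 4, and PDGFRB was at 1.04 to 19.8. COL1A1, the last of them, was at 548 to 1408 in control libraries, 177 to 195 in KO guide 1 and 383 to 511 in KO guide 2. Of 5 endothelial markers, 3 had at most 3 reads in every library, PECAM1 had at most 4, and TEK was at 21.7 to 67.6. In bulk RNA, fewer cells of a kind and less RNA per cell cannot be told apart.

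The acute phase response is the change in plasma and tissue proteins that follows infection or injury. Interleukin-1, interleukin-6 and tumour necrosis factor drive it through NF-kB, C/EBP and STAT3, mainly in liver but also in epithelia, among them renal tubule cells. Complement is a cascade of plasma proteases: C1R and C1S are the proteases of the classical pathway's C1 complex, C3 is the component on which all pathways converge, and CFB is the protease of the alternative pathway. SAA1 and SAA2 encode serum amyloid A, LCN2 encodes an iron-siderophore binding lipocalin used as a marker of kidney injury, and PTX3 and TNFAIP6 encode proteins that help build hyaluronan-rich matrix. COXFA4L3 encodes a small mitochondrial protein that can take the place of COXFA4 in cytochrome c oxidase, and its gene also holds a microRNA.

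SAA1 and SAA2 are neighbours on chromosome 11 (GRCh38.p14, 18266264 to 18269967 and 18238236 to 18248668). They are shown first because their likeness bears on how reads were assigned. In GENCODE 29 transcripts, their coding sequences of 369 bases each differed at 11 bases (97.02% identity), and the longest run of identical bases was 186. Bases 175 to 324 of the coding sequence, counted from the A of the start codon, hold 10 of the 11 differences, which are in capitals.
SAA1: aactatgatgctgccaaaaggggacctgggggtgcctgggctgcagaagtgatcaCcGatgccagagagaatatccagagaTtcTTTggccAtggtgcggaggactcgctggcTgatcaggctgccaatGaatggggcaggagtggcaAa
SAA2: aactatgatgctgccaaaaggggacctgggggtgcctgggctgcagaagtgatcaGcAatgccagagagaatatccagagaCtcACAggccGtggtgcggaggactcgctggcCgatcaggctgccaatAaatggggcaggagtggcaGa
Reads from the identical stretches fit both genes, so the split between SAA1 and SAA2 is uncertain.

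Promoter sequences in RefSeq (GRCh38.p14) matched 6 of the 10 genes. The 250 bases before the start are printed for 4 of them, a choice made after their values were seen: TNFAIP6, whose arms did not overlap, PTX3 and LCN2, which differed between lines, and COXFA4L3, which differed between replicates. Capitals mark matches, on either strand, to the kB consensus bound by NF-kB, to TGANTCA (AP-1), to TTNNGNAA (C/EBP) and to TTCNNNGAA (STAT).
TNFAIP6, chr2:151357342-151357591, plus strand: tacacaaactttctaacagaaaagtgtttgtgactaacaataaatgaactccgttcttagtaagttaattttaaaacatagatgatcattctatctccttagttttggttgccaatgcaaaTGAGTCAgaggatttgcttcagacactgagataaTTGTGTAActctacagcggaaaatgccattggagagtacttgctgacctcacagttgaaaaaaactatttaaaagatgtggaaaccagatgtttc
PTX3, chr3:157436600-157436849, plus strand: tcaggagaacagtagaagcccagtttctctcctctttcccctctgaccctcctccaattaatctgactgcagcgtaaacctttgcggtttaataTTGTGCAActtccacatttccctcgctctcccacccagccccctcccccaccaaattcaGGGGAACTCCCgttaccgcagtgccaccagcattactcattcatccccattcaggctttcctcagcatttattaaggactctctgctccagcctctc
LCN2, chr9:128149203-128149452, plus strand: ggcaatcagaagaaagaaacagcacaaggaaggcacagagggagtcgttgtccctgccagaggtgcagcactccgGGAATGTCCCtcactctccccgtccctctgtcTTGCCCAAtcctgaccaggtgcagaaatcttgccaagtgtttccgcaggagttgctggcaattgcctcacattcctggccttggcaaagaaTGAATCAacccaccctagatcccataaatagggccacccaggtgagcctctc
COXFA4L3, chr15:45430360-45430609, plus strand: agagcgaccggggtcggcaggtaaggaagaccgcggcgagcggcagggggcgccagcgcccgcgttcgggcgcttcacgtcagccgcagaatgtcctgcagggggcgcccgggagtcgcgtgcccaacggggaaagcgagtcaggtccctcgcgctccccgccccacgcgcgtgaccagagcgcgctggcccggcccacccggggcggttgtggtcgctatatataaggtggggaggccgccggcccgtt
TNFAIP6 held 1 TGANTCA and 1 TTNNGNAA, PTX3 held 2 overlapping kB matches and 1 TTNNGNAA, LCN2 held 1 each of the kB consensus, TGANTCA and TTNNGNAA, and COXFA4L3 held none of these letters in its window. CFB, not printed, held 1 kB match and 1 TTCNNNGAA, and the windows of the 2 starts of C1R, not printed, held 2 TTNNGNAA in one and 1 TTNNGNAA and 1 TTCNNNGAA in the other. Of 34943 promoter windows of the same length, 9.95% held the kB consensus, 6.59% TGANTCA, 33.2% TTNNGNAA and 6.56% TTCNNNGAA. The matches are a description of letters and show no binding.

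The expression levels were compared between genes per kilobase of exon, with exon lengths from GENCODE 29. C1S had the highest median over the 8 libraries (416 normalized counts per kb), followed by C3 (237), PTX3 (160), C1R (124), SAA1 (94.0), COXFA4L3 (56.8), TNFAIP6 (47.4), LCN2 (3.84), SAA2 (2.33) and CFB (0.092). The ranges of each neighbouring pair in this order overlapped. The cells thus carried abundant transcripts of the classical pathway proteases and of C3, and little of the alternative pathway protease.

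**Figure D1:**
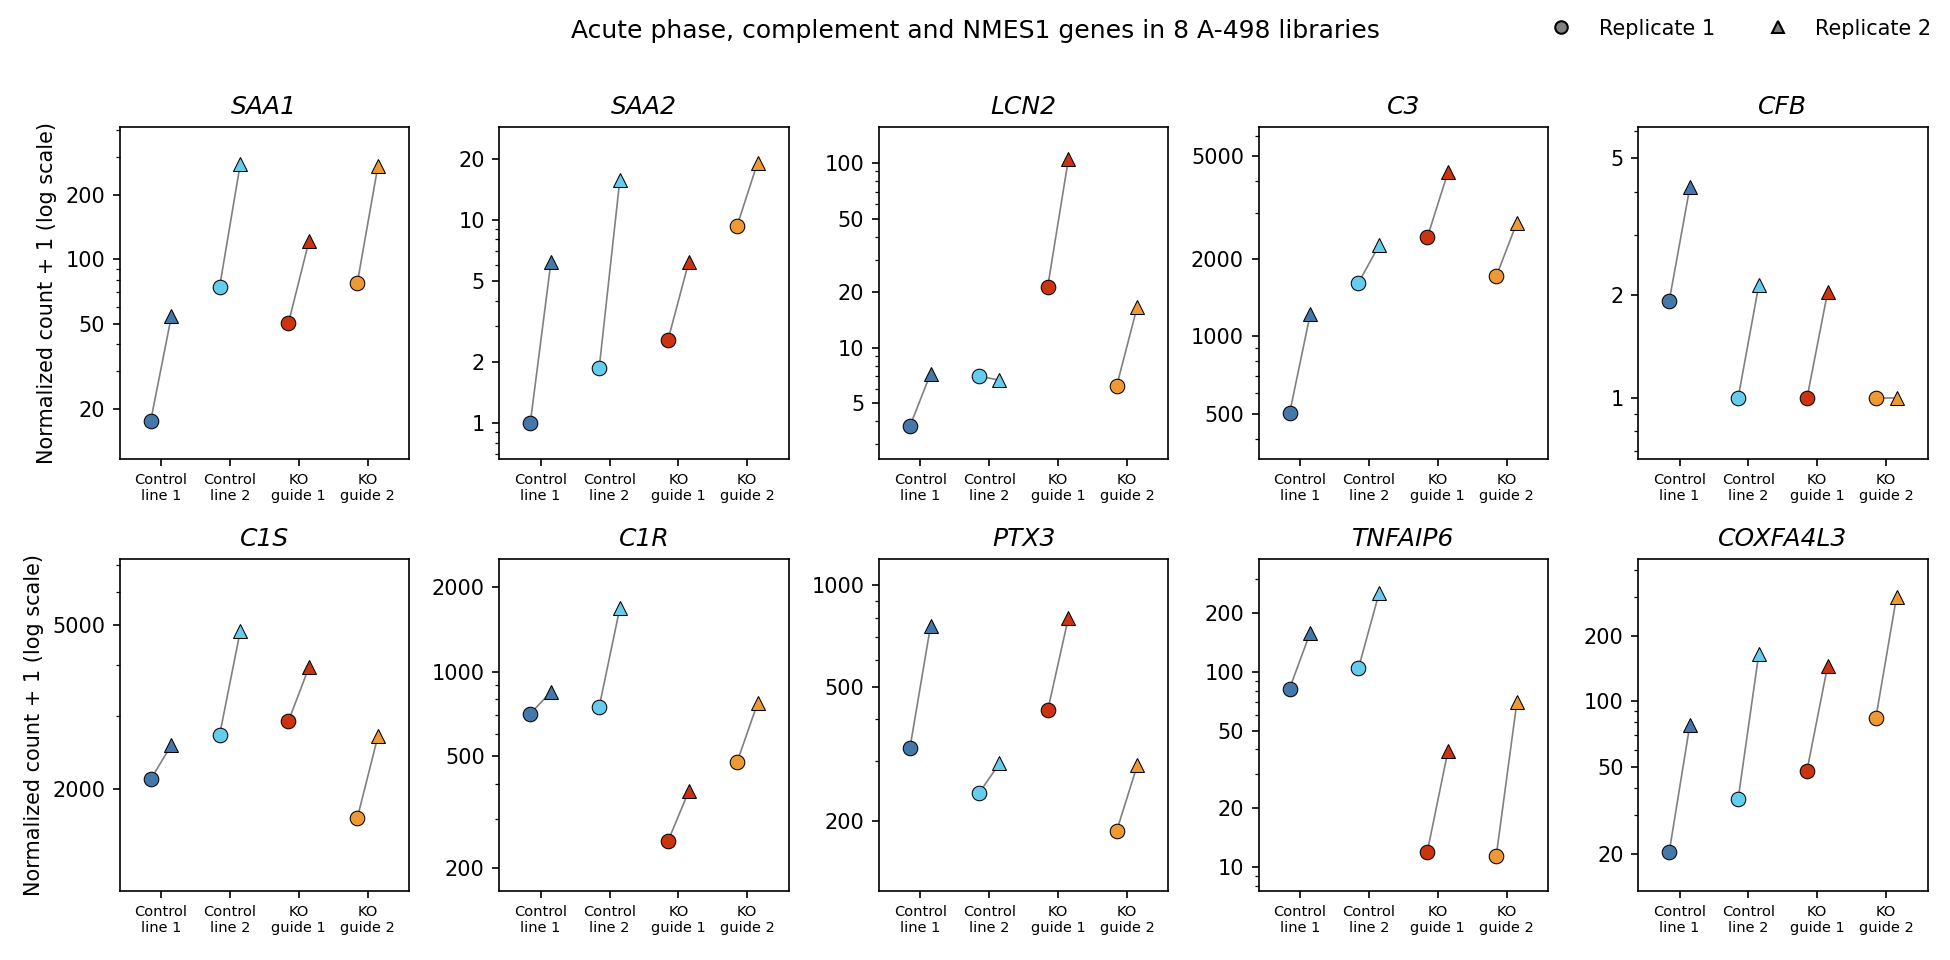
Normalized count plus 1 (vertical axis, log scale, a separate range in each panel) of the 10 genes in the 4 lines, with a circle for replicate 1 and a triangle for replicate 2, joined by a line. In all 10 panels the triangle lies above the circle in at least 3 lines and the TNFAIP6 panel shows all 4 KO-labelled libraries (10.3 to 68.8) below the control libraries (80.9 to 253); CFB is at 0 to 3.12 throughout.

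Serum amyloid A transcripts were higher in replicate 2 of every line. SAA1 had normalized counts of 16.5 and 53.0 in replicates 1 and 2 of control line 1, 73.1 and 276 in control line 2, 49.3 and 121 in KO guide 1, and 76.5 and 273 in KO guide 2. The ratio of replicate 2 to replicate 1 was thus 3.20, 3.78, 2.46 and 3.56, and the libraries of the control and KO-labelled lines overlapped. Because this gene was picked on that difference, the ratios are a description. SAA2 rested on few reads, from 0 in replicate 1 of control line 1 to 15 in replicate 2 of KO guide 2, and its normalized counts were 0 and 5.20, 0.860 and 14.7, 1.57 and 5.19, and 8.27 and 18.1 in the same order of lines. It passed the filter only through 2 replicate 2 libraries, so its difference between replicates, 2.01 on the log2(normalized count + 1) scale (SE 0.50), is a description and is not counted as a call. SAA2 made up 0% to 9.76% of the reads of both genes, a share to be read with the uncertain split given above. SAA4, the constitutive family member, had at most 1 read in any library.

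COXFA4L3 had the same order of replicates as SAA1 in every line. Its normalized counts were 19.3 and 77.0 in control line 1, 34.4 and 163 in control line 2, 47.0 and 144 in KO guide 1, and 82.7 and 299 in KO guide 2. Replicate 2 exceeded replicate 1 by 3.99, 4.74, 3.07 and 3.62 times, the difference on which this gene too was picked. Every replicate 2 library except that of control line 1 (77.0) lay above every replicate 1 library. Pearson's r of log2 values over the 8 libraries, which share 4 lines and the replicate numbers, was 0.913 between COXFA4L3 and SAA1 and 0.951 between COXFA4L3 and SAA2. SAA1 and COXFA4L3 were both picked for higher values in replicate 2, which raises the first r. The second r is not free of selection either, since SAA2 passed the filter only through replicate 2 libraries. COXFA4, the housekeeping counterpart that the COXFA4L3 protein can replace, stayed within 2792 to 3176 normalized counts. Among the 15 genes listed for cytochrome c oxidase and its COXFA4 paralogs, 12 were tested and 1, COX5B, rose in replicate 2 (log2 difference 0.33, SE 0.10, limma adjusted p = 0.0359). That count was near the share of all tested genes called higher in replicate 2, 8.97%.

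The microRNA annotated inside COXFA4L3 is miR-147b (chr15:45433098-45433118, plus strand, GRCh38.p14), shown with bases 2 to 8, its seed, in capitals.
hsa-miR-147b-3p: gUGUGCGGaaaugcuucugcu
The row of its hairpin gene MIR147B was listed at 0 reads in all 8 libraries. Libraries selected for polyadenylated RNA do not measure a mature microRNA.

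TNFAIP6, which encodes the hyaluronan-binding protein TSG-6, was the only one of the 9 tested members whose control and KO-labelled libraries did not overlap. Its normalized counts were 80.9 and 158 in control line 1, 103 and 253 in control line 2, 10.96 and 38.4 in KO guide 1, and 10.3 and 68.8 in KO guide 2. Such separation was seen in 1 of 9 tested members, against 10.6% of all tested genes (5.51% with the KO-labelled libraries lower and 5.11% with them higher). The control libraries averaged 149 ± 76.5 (SD, n = 4) and the KO-labelled ones 32.1 ± 27.7 (SD, n = 4). The log2 difference was -2.46 (SE 0.79), with an adjusted p = 0.27 by limma and 0.0758 once the replicate number entered limma as a block. The call depended on the test, since DESeq2 gave an adjusted p = 0.00262 and a limma fit with a separate mean per line gave 0.0371, whereas edgeR gave 0.0965 and limma on line means 0.387. Within replicate 1 the log2 difference was -2.99 and within replicate 2 it was -1.94, so the sign was the same in both. Replicate 2 exceeded replicate 1 by 1.95, 2.45, 3.50 and 6.65 times in the 4 lines, the difference on which the gene was picked.

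PTX3, a soluble pattern recognition protein, separated the lines without following the labels. Its normalized counts were 327 and 757 in control line 1, 240 and 295 in control line 2, 424 and 798 in KO guide 1, and 185 and 291 in KO guide 2. Control line 1 and KO guide 1 were thus the high lines and control line 2 and KO guide 2 the low ones. Between KO-labelled and control libraries the log2 difference was 0.01 (SE 0.51, limma adjusted p = 0.996). PTX3 was lower in KO guide 2 than in KO guide 1 by a log2 difference of -1.32 (SE 0.42), which was not called by limma (adjusted p = 0.0975) and was called with the replicate block (adjusted p = 0.000486) and by DESeq2 (adjusted p = 0.00924). It rose in replicate 2 by 0.77 (SE 0.13, limma adjusted p = 0.00393).

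LCN2 was near the limit of detection except in KO guide 1. The normalized counts were 2.76 and 6.24 in control line 1, 6.02 and 5.66 in control line 2, 20.4 and 104 in KO guide 1, and 5.17 and 15.7 in KO guide 2, from 3 to 7 reads in each control library and 26 and 100 reads in KO guide 1. It passed the filter only through KO-labelled libraries, so p-values for its differences between lines or arms are given but not counted as calls. Its log2 difference between KO guide 1 and both control lines was 2.98 (SE 0.68, limma adjusted p = 0.0371). Without replicate 2 of KO guide 1 the log2 difference was 1.84 (adjusted p = 0.304). The adjusted p was 0.0528 to 0.0948 without any 1 of the 4 control libraries, and 0.0504 with no filter on low values. In KO guide 2 the difference from the controls was 0.76 (SE 0.68, limma adjusted p = 0.534). The difference between the KO-labelled lines was -2.22 (SE 0.79) and had a limma adjusted p = 0.127, and 0.0124 with the replicate block. LCN2 differed between the replicates by 1.15 (SE 0.39, limma adjusted p = 0.0606), was higher in replicate 2 in 3 of 4 lines, and was called by edgeR (0.0129) and without control line 2 (0.047).

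C3, the central complement component, was lowest in control line 1 and highest in KO guide 1. Its normalized counts were 500 and 1217 in control line 1, 1608 and 2251 in control line 2, 2417 and 4330 in KO guide 1, and 1703 and 2754 in KO guide 2. Each KO-labelled library exceeded the control libraries of its own replicate number, but replicate 2 of control line 2 lay above replicate 1 of KO guide 2. The log2 difference between KO-labelled and control libraries was 1.12 (SE 0.50, limma adjusted p = 0.422, and 0.282 with the replicate block). For KO guide 1 against both control lines it was 1.41 (SE 0.38), with a limma adjusted p = 0.0584 that became 2.5e-05 with the replicate block and 0.0484 with edgeR. For KO guide 2 it was 0.83 (SE 0.38), with 0.197 and 0.000799 in the same order. The control lines, which carried no ANXA4 guide, differed by 1.28 (SE 0.43), with 0.18 and 0.000342. C3 rose in replicate 2 by 0.82 (SE 0.11, limma adjusted p = 0.001), and the ratio of replicate 2 to replicate 1 was 1.40 to 2.43 over the lines.

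C1S and C1R, whose proteases act as a pair in the C1 complex, parted in 1 line. C1S had normalized counts of 2107 and 2553 in control line 1, 2697 and 4823 in control line 2, 2917 and 3952 in KO guide 1, and 1699 and 2685 in KO guide 2. C1R had 708 and 847 in control line 1, 749 and 1681 in control line 2, 249 and 374 in KO guide 1, and 475 and 771 in KO guide 2. The ratio of C1S to C1R normalized counts, in the same order, was 2.98 and 3.02, 3.603 and 2.87, 11.7 and 10.5, and 3.58 and 3.48. It thus lay between 2.87 and 3.603 in 6 libraries of 3 lines and above 10 in both libraries of KO guide 1 only.

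C1R fell in KO guide 1 against both control lines (log2 difference -1.61, SE 0.33, limma adjusted p = 0.0255). That call was lost without replicate 1 or replicate 2 of control line 1 (adjusted p = 0.0609 and 0.0851) and without replicate 1 or replicate 2 of KO guide 1 (0.214 and 0.0949), with log2 differences of -1.90 to -1.31. In KO guide 2 the C1R difference was -0.62 (SE 0.33), with a limma adjusted p = 0.27, and 0.0092 with the replicate block. C1S differed from the controls by 0.23 (SE 0.26, limma adjusted p = 0.635) in KO guide 1 and by -0.44 (SE 0.26, adjusted p = 0.337, and 0.0135 with the replicate block) in KO guide 2. Both genes rose in replicate 2, C1S by 0.55 (SE 0.09, limma adjusted p = 0.00354) and C1R by 0.68 (SE 0.12, adjusted p = 0.00478). C1R shares 672 exonic bases with C1RL on the same strand in GENCODE 29, so its count is uncertain there.

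**Figure D2:**
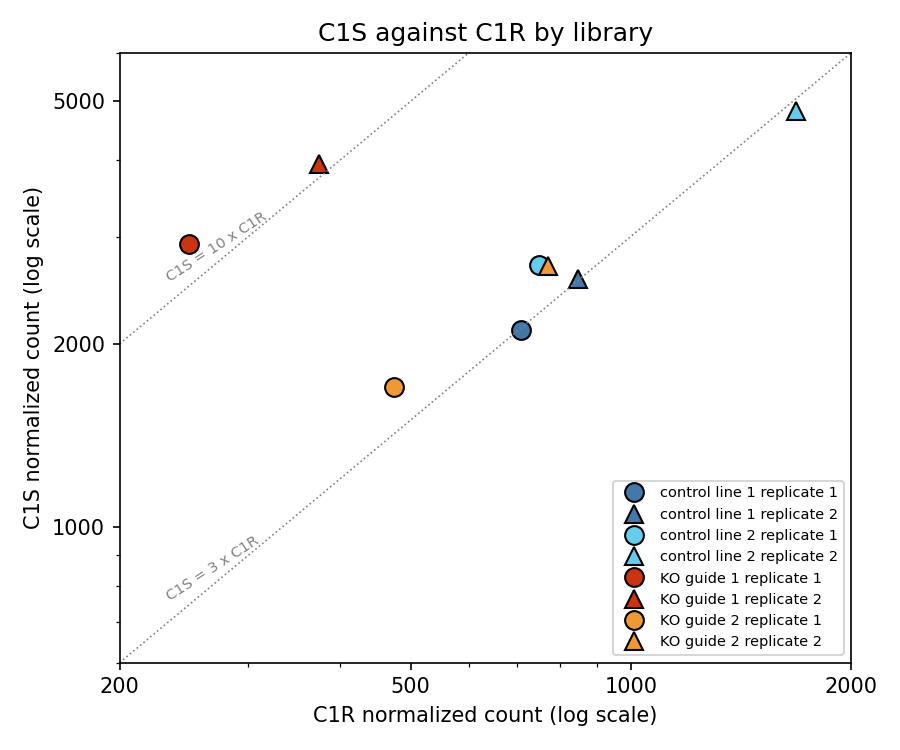
C1S (vertical axis) against C1R (horizontal axis), both as normalized counts on log scales, with 1 point per library and dotted lines at fixed ratios. The 2 libraries of KO guide 1, at ratios of 11.7 and 10.5, lie apart from the 6 other libraries, at 2.87 to 3.603.

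The remaining complement genes were mostly silent. CFB had 0 to 3 reads in each library, at the floor of detection, and no difference is given for it. Of 25 other complement components, 4 were tested. Among the partners of the members, C2 had at most 1 read, C4A had 0 reads, C4B had at most 11 reads (0 to 12.5 normalized counts), and the C1 inhibitor SERPING1 had 0 reads in all 8 libraries. C1RL, a C1R-like protease gene, rose in KO guide 1 by 0.64 (SE 0.16, limma adjusted p = 0.0466) and in KO guide 2 by 0.68 (SE 0.16, adjusted p = 0.0269), but the control lines differed by 1.01 (SE 0.18, adjusted p = 0.0346). C5 fell in KO guide 2 (log2 difference -0.68, SE 0.19, limma adjusted p = 0.0487).

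Over both KO-labelled lines against both control lines, 0 of the 9 tested members were called by limma, against 0.235% of all tested genes. Of the 9, 3 (C3, C1R and TNFAIP6) had an unadjusted p under 0.05. DESeq2, which like edgeR treated the 8 libraries as independent, gave values under the threshold for LCN2, C1R and TNFAIP6 (adjusted p = 0.0138, 0.039 and 0.00262), and edgeR called 0. A separate mean per line called C1R (adjusted p = 0.033) and TNFAIP6 (0.0371). These fits also called many more of the 14040 tested genes than limma did, 850 with DESeq2, 186 with edgeR and 1474 with a separate mean per line. The members' median log2 difference was 0.69, with 6 of 9 above 0, beside a median of 0.00 (0.00073) over all 14040 genes. Control line 2 minus control line 1, with no ANXA4 guide in either, gave the members a similar median of 0.64, with 8 of 9 above 0. Both medians include LCN2, which passed the filter only through KO-labelled libraries. The signs of C1S and PTX3 changed when single libraries were left out.

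For single lines the counts depended on the replicate block. The comparison of KO guide 1 with both control lines called C1R as lower, 1 of the 8 members other than LCN2, against 7.01% of all tested genes (3.82% higher and 3.18% lower). With the block 6 members, LCN2 among them, were under the threshold, against 24.4%. Without either library of KO guide 2, whose libraries enter only through the shared spread, C3 and TNFAIP6 were called as well, at adjusted p-values of 0.0241 to 0.0471. KO guide 2 against the same controls called 0 members by limma, edgeR or DESeq2, with 1 (TNFAIP6) at an unadjusted p under 0.05 and 11.2% of all tested genes called (4.54% higher and 6.67% lower), and 8 members against 27.4% with the block. With the block, SAA1 (log2 difference 1.13, SE 0.19, limma adjusted p = 0.000997), SAA2 (1.86, SE 0.61, 0.0394) and COXFA4L3 (1.53, SE 0.19, 0.000133) were higher in KO guide 2, and TNFAIP6 was lower in KO guide 1 (-2.65, SE 0.29, 7.83e-05) and KO guide 2 (-2.28, SE 0.29, 0.000164). These comparisons of lines take no account of variation between lines, and both use the same control libraries. COL1A1 fell in the same comparisons, with log2 differences of -2.28 in KO guide 1 (SE 0.22, limma adjusted p = 0.000968) and -1.03 in KO guide 2 (SE 0.22, adjusted p = 0.018), and its relation to the members' differences was not tested.

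The values of SAA1, C3 and PTX3 also lay apart in lines that share a label. For TNFAIP6 the log2 difference was 0.51 for the pair of control lines and 0.38 for the KO-labelled pair. With an SE of 0.87 for each, whether its values lay closer there is not resolved. The control lines differed in 0 members by limma, edgeR or DESeq2, with 2 (SAA1 and C3) at an unadjusted p under 0.05, against 2.13% of all tested genes (1.05% higher and 1.08% lower in control line 2), and in 5 members against 12.5% with the replicate block. The largest was SAA1, 2.22 higher in control line 2 (SE 0.82, limma adjusted p = 0.225, and 7.27e-05 with the block). The KO-labelled lines differed in 0 members by limma or edgeR, with 3 (LCN2, C1R and PTX3) at an unadjusted p under 0.05, against 6.94% of all tested genes (2.41% higher and 4.53% lower in KO guide 2). With DESeq2 those 3 were under the threshold, as were 1392 of the 14040 tested genes. With the replicate block 7 members were, against 24.5% of all tested genes. Both counts hold LCN2, which is not counted as a call. For SAA1 the control difference (2.22) thus exceeded the difference of either KO-labelled line from the controls (0.24 and 1.13).

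**Figure D3:**
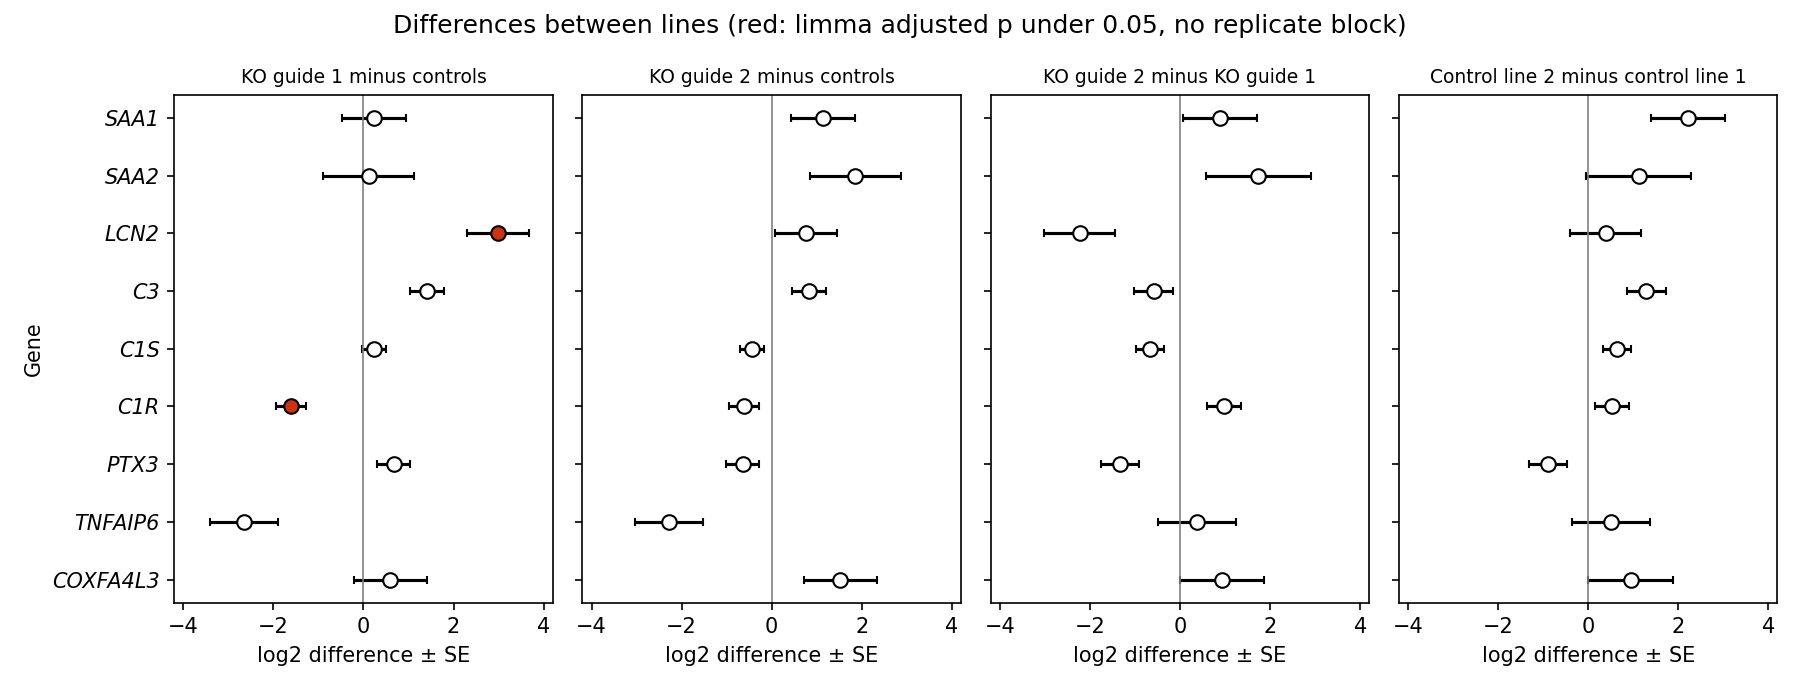
Log2 differences (horizontal axis, bars show 1 SE on each side) of the 9 tested genes for 4 comparisons of lines, from limma without the replicate block. Filled red points mark an adjusted p under 0.05, LCN2 (2.98) and C1R (-1.61) in KO guide 1, and SAA1 differs by 2.22 between the control lines. LCN2 passed the filter only through KO-labelled libraries, so its red point is not counted as a call.

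Replicate 2 was then set against replicate 1 in a model with a mean per line. Among the 6 tested members that were not picked on this contrast, SAA2 is left out of the count because it passed the filter only through replicate 2 libraries. Of the other 5, 4 rose (C3, C1S, C1R and PTX3), LCN2 was not called and 0 fell, against 17.6% of all tested genes called, 8.97% as higher and 8.62% as lower. C3, C1S, C1R and PTX3 were higher in replicate 2 in all 4 lines, which held for 20.2% of all tested genes, while 19.3% were lower in all 4 lines. Of all called genes, 51.0% were higher in replicate 2, and 29.9% were when the libraries were scaled to equal totals; C3, C1S, C1R and PTX3 were called under that scaling too. Total reads were lower in replicate 2 in all 4 lines (15784890 to 17610801, against 16904423 to 22631588), and the mitochondrial share was higher in 3 of 4 lines (6.23% to 13.8%, against 4.67% to 6.43%). The highest share was in replicate 2 of KO guide 2, and without that line C3, C1S, C1R and PTX3 were still called. The part of depth and of the mitochondrial share in the replicate difference was not tested.

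**Figure D4:**
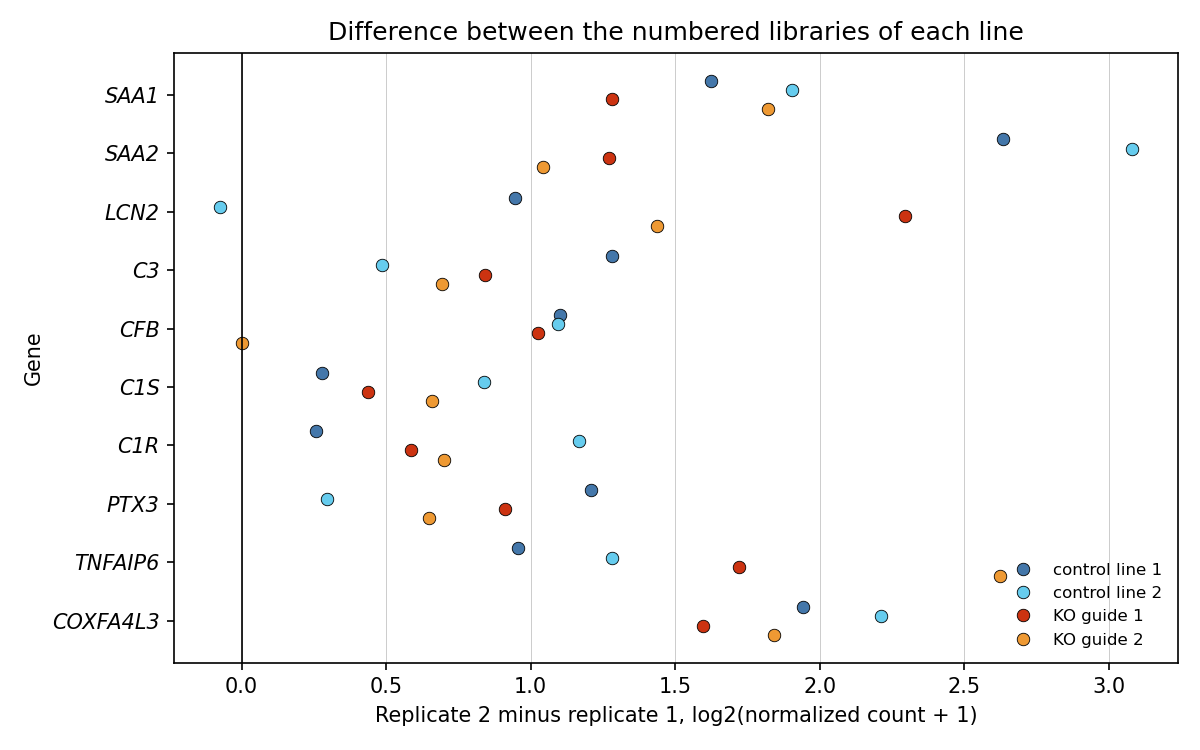
Replicate 2 minus replicate 1 on the log2(normalized count + 1) scale (horizontal axis) for the 10 genes, with 1 point per line. All points of SAA1, SAA2, C3, C1S, C1R, PTX3, TNFAIP6 and COXFA4L3 lie above 0, while LCN2 in control line 2 (-0.08) and CFB in KO guide 2 (0.00) do not; SAA1, TNFAIP6 and COXFA4L3 were picked for this pattern.

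The cytokines that induce acute phase genes were examined in the same contrast. TNF, the gene of tumour necrosis factor, was at 0 normalized counts in all 8 libraries. IL6, the main inducer in hepatocytes, had normalized counts of 311 and 716 in control line 1, 201 and 398 in control line 2, 112 and 395 in KO guide 1, and 556 and 814 in KO guide 2. It rose in replicate 2 by 1.13 (SE 0.16, limma adjusted p = 0.00132). Of 25 tested cytokine, receptor and transcription factor genes upstream of the response, 6 rose, namely IL6, IL1RAP, NFKBIZ, TNFAIP3, LIF and OSMR, and 1, NFKB1, fell (log2 difference -0.41), against 8.97% of all tested genes called higher and 8.62% called lower. NFKBIZ, a nuclear co-activator of NF-kB that acts on acute phase genes, rose by 0.40 (SE 0.11, adjusted p = 0.0298) and LIF by 0.38 (SE 0.08, adjusted p = 0.00734). The median over this list was 0.03. This list and the other gene lists were written with earlier results of these data known, so counts over them are descriptions.

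IL1A, IL1B, CEBPB, CEBPD and SOCS3 were not called between the replicates. IL1A was low, at 0 to 11.4 normalized counts (log2 difference 0.43, limma adjusted p = 0.583), and IL1B was at 1.21 to 43.6 (0.35, adjusted p = 0.519). CEBPB (1126 to 1808), CEBPD (91.5 to 167) and SOCS3 (391 to 687) differed by -0.07, 0.03 and -0.13, with limma adjusted p-values of 0.547, 0.914 and 0.428. Levels of these transcripts do not give the activity of the factors they encode.

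Complement regulators and hyaluronan genes shared the replicate difference. Of 14 tested regulators and receptors of complement, 6 rose in replicate 2 and 0 fell, against the same shares of 8.97% and 8.62% of all tested genes, led by CFI (0.92, SE 0.14, limma adjusted p = 0.00215), ITGAX (0.58), CLU (0.53) and CD55 (0.46). CFI, the protease that inactivates C3b, had normalized counts of 365 and 628, 422 and 1268, 479 and 670, and 676 and 1206 in the 4 lines. The list of hyaluronan partners of TNFAIP6 and PTX3 also held PTGS2 and PTGES, which are prostaglandin genes and not hyaluronan genes. Of its 11 tested genes, 5 rose and 0 fell, against 8.97% and 8.62%. The largest rises were those of PTGS2 (1.30, SE 0.24, limma adjusted p = 0.0056), HAS2 (1.03, SE 0.17, adjusted p = 0.00291), CD44 (0.65) and ITIH5 (0.60). HAS2 is a hyaluronan synthase and CD44 the main hyaluronan receptor. Of 25 other acute phase genes, 4 were tested and 2 rose, the copper carrier CP by 0.74 (SE 0.16, adjusted p = 0.0102) and the mitochondrial dismutase SOD2 by 0.52 (SE 0.14, adjusted p = 0.0246). The medians were 0.30 for regulators and receptors and 0.69 for other acute phase genes, beside 0.00 (0.00154) over all tested genes. For the hyaluronan list, its prostaglandin genes included, the median was 0.55.

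Against the controls, genes around the members moved in several directions. NFKBIA, the inhibitor induced by NF-kB, rose over both KO-labelled lines by 1.07 (SE 0.14, limma adjusted p = 0.0121), from 458 to 534 normalized counts in the control libraries to 998 to 1119. It was the 1 gene called among 25 upstream genes, against 0.235% of all tested genes. The list was written with earlier results of these data known, so its counts are descriptions. In KO guide 1, 4 upstream genes rose (TNFAIP3 by 1.37, NFKBIA by 1.11, RELB by 0.69 and NFKB2 by 0.56) and 0 fell, of 25 tested, against 3.82% of all tested genes called higher and 3.18% lower. In KO guide 2, 5 rose and 5 were under the threshold as lower, IL1B among the latter, against 4.54% and 6.67%. The largest rises were those of TNFAIP3 (1.31), JAK1 (1.20), NFKBIA (1.03) and RELB (0.81). IL1B (-2.64), IL1RAP (-1.68), LIFR (-0.89) and CEBPB (-0.51) had the largest falls. IL1B passed the filter only through control and KO guide 1 libraries, and was at 3.10 and 1.21 normalized counts in KO guide 2. Its difference there is thus a description and is not counted as a call.

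SOD2 rose in KO guide 1 by 1.26 (SE 0.29, limma adjusted p = 0.0379) and in KO guide 2 by 1.24 (SE 0.29, adjusted p = 0.0282), while CP fell in KO guide 2 (log2 difference -1.44, SE 0.38, adjusted p = 0.0441). PTGES, which makes prostaglandin E2 and was listed with the hyaluronan partners, rose in both KO-labelled lines, by 2.19 and 1.26. HYAL2, on the same list, fell in both (-0.77 and -1.01). The control lines also differed in PTGES (1.40) and HYAL2 (-0.78). ITGAM and ITGB2, which together encode complement receptor 3, moved in opposite directions in each KO-labelled line. The log2 differences in KO guide 1 and KO guide 2 were 1.37 and 1.34 for ITGAM and -1.59 and -1.61 for ITGB2, all called by limma.

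Genes with the pattern most like each member were sought among 11237 tested genes with a mean of at least 50 normalized counts, by Pearson's r of log2(normalized count + 1) over the 8 libraries. The nearest were IFI30 and YWHAH for SAA1 (r = 0.973 and 0.972), RHEB and CFI for SAA2 (0.964 and 0.96), SLC39A8 and ZDHHC5 for LCN2 (0.979 and 0.971), and LMBRD1 and AREG for C3 (0.977 and 0.971). They were SPR and PTCD3 for C1S (0.964 for both), RELL2 and PRKAR2B for C1R (0.983 and 0.981), NT5E and DNAJB12 for PTX3 (0.972 and 0.96), RIOK1 and DNAJC9 for TNFAIP6 (0.988 and 0.972), and FBXL6 and AP5Z1 for COXFA4L3 (0.983 and 0.982). Among the members themselves, r was 0.951 for SAA2 with COXFA4L3, 0.913 for SAA1 with COXFA4L3, 0.882 for C1R with TNFAIP6, 0.878 for SAA1 with SAA2 and 0.813 for C3 with LCN2, and LCN2 and C1R were the least alike (-0.552). The libraries share lines and replicate numbers, so these values are descriptions of 8 libraries. The picking of SAA1, TNFAIP6 and COXFA4L3 and the filter on SAA2 and LCN2 also bear on r among the members.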

How the data were processed

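Polyadenylated RNA of 8 A-498 libraries was sequenced, per the labels. Reads were counted per gene with featureCounts, per the file headers, and the authors' deposited values are a normalized signal, 1 column per library. The submitters' processing notes name fastp 0.23.2, HISAT2 2.2.1, featureCounts 2.0.1, DESeq2 2.11.40.8 and hg38/GRCh38. The annotation and strand use are not given in the sources used here, so overlapping genes (SAA2 with SAA2-SAA4, C1S with EMG1, PTX3 with VEPH1, CFB with C2) and antisense genes at COXFA4L3 leave counts uncertain. All values above 0 (100%, relative tolerance 1e-06) were whole multiples of a step per library, which gave the reads. Counting limits cover counting error only.

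The members, the gene lists and the tests were chosen with earlier results of these data known. Tests used limma 3.58.1 in R 4.3.3 on log2(normalized count + 1), for 14040 genes with at least 10 in at least 2 libraries, with Benjamini-Hochberg adjustment over all of them and calls at an adjusted p under 0.05. KO-labelled and control libraries were compared with a correlation of 0.33 between libraries of a line. Lines were compared in a model with a mean per line, and replicates in that model with a replicate term. All 10 members were named, with the 2 nearest genes of each, the called genes of each list (at most 4 a direction) and preset upstream genes and partners, of which 1 is not reported here. Replicate numbers came from the titles. The differences between replicates correlated across genes at 0.285 to 0.501 in all 6 pairs of lines, above the limit of 0.1, so the numbers were taken to pair the libraries, and fits with the replicate block stand beside results they changed. The libraries of each line differed beyond sampling noise (chi-square of 18.1 to 70.6 per degree of freedom). Alternatives were the pseudocount, the filter, the scaling, edgeR 4.0.16, DESeq2 1.42.0, the block and leaving out libraries. The fits were tested on simulated data.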

Additional observations from a re-analysis of the deposited data

Results flagged for a closer look

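In 5 of 20 groups of 4 libraries checked, at least 1 library lay far from the others by Dixon's criterion. For 4 independent normal values chance meets it in about 1 in 20 groups. Each group here held 2 lines with 2 libraries each, on unlogged counts, so that rate does not apply and no excess can be read from the 5. LCN2 was lowest in replicate 1 of control line 1 (2.76 normalized counts, a gap of 0.835 of the range of the control libraries) and highest in replicate 2 of KO guide 1 (103.7, a gap of 0.846 of the range of the KO-labelled libraries). C1R was highest among control libraries in replicate 2 of control line 2 (1681, a gap of 0.858 of the range). PTX3 was highest among control libraries in replicate 2 of control line 1 (757, a gap of 0.831). CFB was above 0 in 1 KO-labelled library (1.04, a single read).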

How the results depend on the processing

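The counts that follow are of members under the threshold and include LCN2 and SAA2, which are not counted as calls above. With the replicate block, the share of all tested genes called went from 7.01% to 24.4% for KO guide 1. It went from 11.2% to 27.4% for KO guide 2 and from 2.13% to 12.5% between the control lines. Between the KO-labelled lines it went from 6.94% to 24.5%. Limma called 17.6% of all tested genes between replicates. The number of members by limma between KO-labelled and control libraries was 0, against 0.235% of all tested genes. This number became 3 with DESeq2 and 2 with a separate mean per line. For KO guide 1 against the controls (2) it was 1 with no filter or with at least 10 in all 8 libraries, 3 with edgeR, 6 with the replicate block, and 0 to 4 when single libraries were left out. For KO guide 2 (0) it was 8 with the replicate block and 0 to 1 when single libraries were left out. Between the control lines (0) it was 5 with the block, and between the KO-labelled lines (0) it was 3 with DESeq2 and 7 with the block. The 5 members under the threshold between replicates, SAA2 included, became 4 to 5 when single lines were left out. SAA2 in KO guide 1 changed sign with a pseudocount of 10 (-0.10), edgeR (-0.40) and DESeq2 (-0.42). Leaving out single libraries changed the sign of differences that were not called: C1S (-0.27 to 0.13) and PTX3 (-0.33 to 0.35) between arms, SAA1 (-0.40 to 0.88), SAA2 (-0.65 to 0.89) and COXFA4L3 (-0.20 to 1.40) in KO guide 1. Between the control lines this held for SAA2 (-0.42 to 2.66), LCN2 (-0.082 to 0.86), C1R (-0.049 to 1.12), TNFAIP6 (-0.13 to 1.15) and COXFA4L3 (-0.17 to 2.04), and between the KO-labelled lines for SAA1 (-0.017 to 1.80) and TNFAIP6 (-0.94 to 1.69). The cause was not tested. Few reads limit SAA2, LCN2 and CFB.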
